A study of Drosophila melanogaster with 40 samples.

Results

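The libraries described here are those of old wild-type flies (Drosophila melanogaster) sampled late or early in recovery from a heat shock, 8 of the 40 libraries of the series. They were chosen by their labels: genotype wildtype, age old and treatment heat shock. The hour of recovery was 6 or 8 for the late side and 0 or 1 for the early side. This choice, the gene lists and the rules for naming genes were made with earlier results of these data known. The late side held 4 libraries, a climber and a non-climber library at 6 h and the same pair at 8 h. The early side held 4 libraries, a non-climber and a climber library at 0 h and the same pair at 1 h. Climbers and non-climbers are flies that did or did not climb in a negative geotaxis test, in which healthy flies walk upwards after being tapped down, and the sorting was done after the heat shock. RNA came from whole flies, so fewer cells of a type and less RNA per cell cannot be told apart. The labels used here give no age in days, no sex, no number of flies per library and no heating protocol. Flies without insulin-producing cells and young flies form other groups of the series and were not used. Landmarks are given from old wild-type libraries at 2 h and 4 h, 2 at each hour. A single unheated control library taken at 4 h is another landmark and entered no test. Of the fits below, the 2 h and 4 h libraries entered only that with batch over 12 libraries and the slopes within batch 3.

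In flies, as in other animals, heat unfolds proteins and releases heat shock factor, which binds the promoters of heat shock genes and drives them within minutes. The products are chaperones: Hsp70 proteins and their J-domain and nucleotide exchange partners refold proteins with ATP, and small heat shock proteins hold unfolded proteins until the others can act. When chaperones are again in excess they bind heat shock factor, transcription stops and the messages decay, while general transcription and translation, held down during heat, return.

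The libraries were 3′ end counts of 11714961 to 22632634 reads per library, with the 1 h climber library the shallowest. Levels are given in CPM, the reads on a gene scaled to library size after TMM correction, and differences as log2 late over early with their standard error (SE), from edgeR's quasi-likelihood test with Benjamini-Hochberg adjustment over the 10031 genes tested. Since 1 library was made for each hour and behaviour, and nothing says how the flies were raised, the p-values measure only the spread between these libraries. The labels number the batches without saying what a batch is. Both 8 h libraries were of batch 4, both 6 h libraries of batch 3, and the early libraries were of batch 2 except the 1 h climber library, of batch 3, so that batch followed the hour. Of the transcripts that mark a sex, those of females were present: yolk proteins, chorion and germline genes were abundant. Of the 28 listed genes of the male accessory gland and testis only 1, Acp36DE, had enough counts to be tested. It had at most 1.33 CPM in any library, and none of the others had more than 35 counts over the 8 libraries. The 1 h climber library stood apart from the others. In it 22 genes lay at least 5-fold above each of the other 7 libraries at a level of at least 20 CPM, against 0 genes in each of the other 7. Among them were CG12998 with 210 CPM against at most 1.45 CPM elsewhere, the actin Act79B with 369 CPM against at most 28.7 CPM, and the myosin heavy chain Mhc with 1279 CPM against at most 142 CPM. Counts that moved with it are given with and without it.

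Between the late and the early libraries, 494 genes were higher (4.92% of those tested) and 387 were lower (3.86%). In either direction this was 8.78%, the share beside which the counts of list members below stand. The 4 late libraries all lay above the 4 early ones for 793 genes (7.91%) and all below for 718 (7.16%). Without the 1 h climber library 830 genes were higher (8.17%) and 547 lower (5.38%), among them 483 of the 494 and 354 of the 387. Leaving out the 0 h climber library gave 319 higher and 234 lower genes. The lower genes were 200 without the 8 h non-climber library, 223 without the 8 h climber library, 248 without the 6 h non-climber library and 235 without the 0 h non-climber library. The median difference over all genes was -0.01. Placing the 2 h, 4 h and control libraries on a scale on which the early mean is 0% and the late mean 100%, the genes that were higher late had a median position of 39.6% at 2 h and 77.1% at 4 h, and the genes that were lower had 29.7% and 60.9%. The 2 h, 4 h and control libraries were all of batch 3, so these positions carry the batch as well as the hour. The part of batch in them was not tested. The unheated control library lay at a median of 28.9% for the higher genes and 36.7% for the lower ones. It was nearer to the late than to the early mean for 153 of the 494 and 165 of the 387, so for most of the genes called, the late libraries were not nearer to the control than the early ones were.

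Of the 37 lists, the inducible heat shock genes had the largest share of members called. Of the 14 measured, 12 were lower late (85.7%), 0 were higher, and their median difference was -1.93, against -0.01 over all genes. Their summed level was 4507 to 5909 CPM late and 14020 to 30610 CPM early, with 12620 to 19260 CPM at 2 h, 8331 to 10270 CPM at 4 h and 2358 CPM in the control. The late and early sums did not overlap, the 2 h sums overlapped the early ones, and the 4 h sums lay between the sides. The late sums were all above that of the control. Between 8 h and 6 h no gene of the list passed. Of the 18 genes written in this list 17 were in the count table. Hsp70Bbb and Hsp22 had no count in these libraries and CG4456, whose annotated span contains that of Hsp22, had 6, so none of these was tested.

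Hsp68, a heat-inducible cytosolic Hsp70-type chaperone (chr3R:24055080-24057310, minus strand, dm6), had 782, 727, 620 and 525 CPM in the 6 h climber, 6 h non-climber, 8 h climber and 8 h non-climber libraries. It had 6830, 3763, 4856 and 2279 CPM in the 0 h non-climber, 0 h climber, 1 h non-climber and 1 h climber libraries. The late values were close together, the early ones spread widely with both climber libraries at the low end, and the sides did not overlap. The difference was -2.74 ± 0.37 (SE), a 6.68-fold fall, with an adjusted p of 0.00789. In the control Hsp68 had 22.7 CPM, so the late mean was still 29.2-fold above it.

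The small heat shock genes lie together on chromosome 3L. Hsp23 (chr3L:9381882-9382765, plus strand, dm6), which holds unfolded proteins in the cytosol, had 996, 855, 623 and 520 CPM in the same order of late libraries and 5224, 4548, 3652 and 4044 CPM in the early ones. It fell by 2.54 on the log2 scale (SE 0.24, adjusted p = 0.00133) and its late mean was 23-fold above the 32.6 CPM of the control. Hsp23 was the only heat shock gene among the 3 genes with the smallest p between 8 h and 6 h, with a difference of -0.70 ± 0.12 that did not pass (adjusted p = 0.206). Hsp26 (chr3L:9376418-9377427, minus strand, dm6) had 2419, 2321, 2089 and 1866 CPM late and 11842, 7975, 8550 and 5219 CPM early. Its difference was -1.95 ± 0.25 (adjusted p = 0.00551), and the control, with 1590 CPM, was close below the late libraries. Hsp26 thus had a high level without heat, which Hsp23 and Hsp68 did not. Hsp67Bc (-2.48) and Hsp67Ba (-1.83) also fell. The crystallin-like l(2)efl did not pass, with a mean of 28.9 CPM late and 25.0 CPM early.

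The Hsp70 copies are near-identical in sequence, so reads may be split between them and single copies are uncertain. Of the 5 copies tested, all fell: Hsp70Aa by 2.52, Hsp70Bc by 2.36, Hsp70Ab by 2.32, Hsp70Ba by 1.90 and Hsp70Bb by 1.75 on the log2 scale. Hsp70Ab (chr3R:11958535-11960909, plus strand, dm6) had 117, 143, 89.8 and 105 CPM late against 838, 501, 732 and 193 CPM early. The 1 h climber library was the lowest early library for Hsp70Ab and for each of the other 4 copies. Hsp70Ab passed with all 8 libraries (SE 0.47, adjusted p = 0.0349), lost the call in 7 of the 8 fits that left out 1 library, and passed without the 1 h climber library at an adjusted p of 0.000624. Of the 12 heat shock genes that fell, 6 passed in each of those 8 fits: Hsp68, Hsp23, Hsp26, Hsp67Ba, Hsp70Aa and Hsp70Ba. Hsp67Bc passed in 2 of them, and the co-chaperone genes DnaJ-1 and stv in 5 each.

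The partners of Hsp70 also fell. DnaJ-1, the J-domain protein that delivers clients to Hsp70, had 336, 357, 403 and 317 CPM late against 1480, 858, 1218 and 660 CPM early (-1.58 ± 0.26, adjusted p = 0.0162). Starvin (stv), a BAG-family exchange factor for Hsp70, had 259, 311, 235 and 262 CPM late against 1169, 789, 1089 and 490 CPM early (-1.73 ± 0.29, adjusted p = 0.0164). In both genes every early library lay above every late one, and within the early side both non-climber libraries lay above both climber libraries. The noncoding RNA lncRNA:Hsromega, which forms nuclear speckles after heat, had a late mean of 779 CPM and an early mean of 1334 CPM and did not pass (-0.78 ± 0.28, adjusted p = 0.168). Its 1 h climber value, 754 CPM, lay among the late values. Without that library lncRNA:Hsromega passed (adjusted p = 0.00202) and 13 of the 14 genes were lower.

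**Figure D1:**
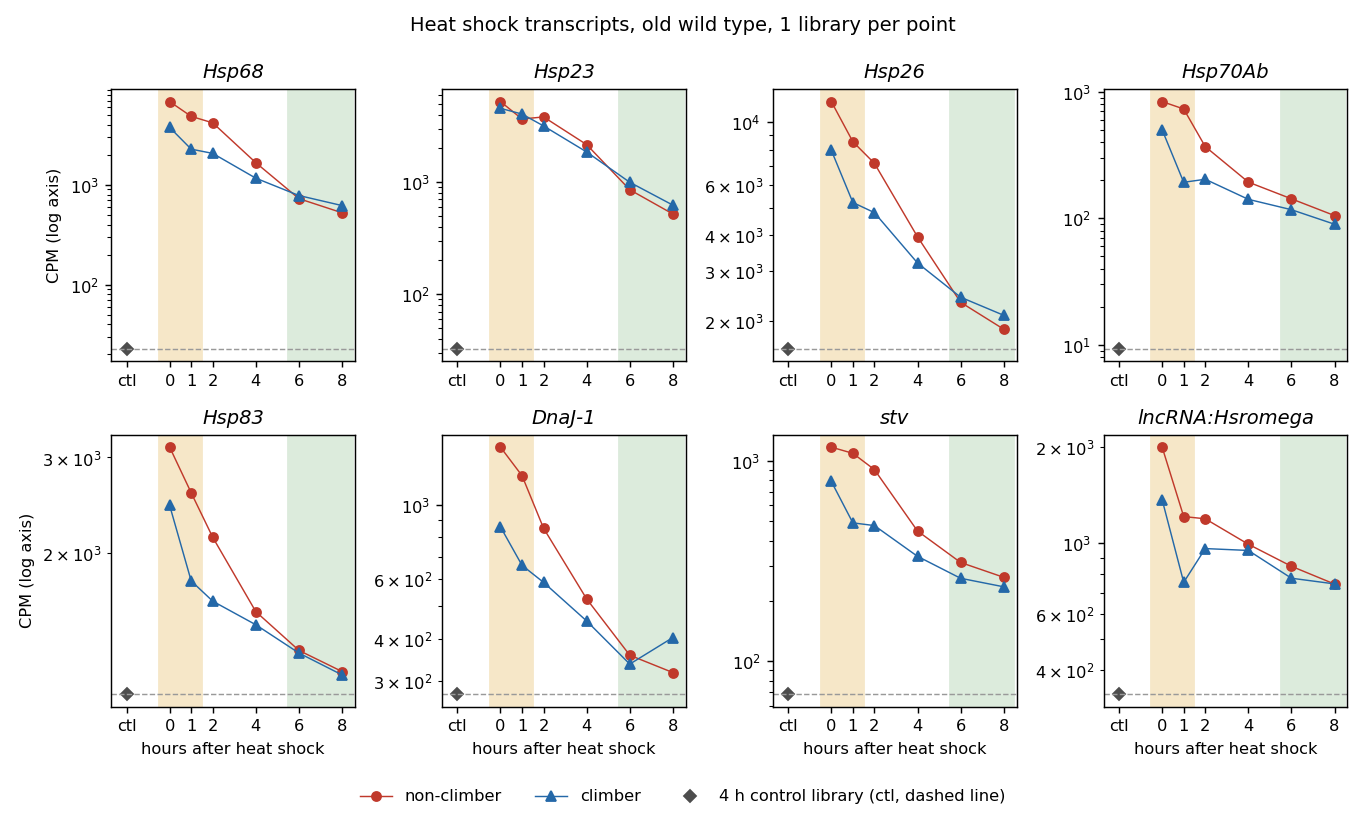
CPM on a log axis against hours after heat shock for 8 heat shock transcripts in old wild-type flies, 1 library per point, with non-climbers as circles, climbers as triangles, the 0 and 1 h libraries on the left shading, the 6 and 8 h libraries on the right shading, and the single 4 h control library (ctl) as a diamond and dashed line. For Hsp68, Hsp23 and Hsp26 the 4 late points lie below the 4 early ones, the 1 h climber library is low for Hsp70Ab and lncRNA:Hsromega, and Hsp26 comes closer to the control than Hsp23 or Hsp68.

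Chaperones that cells make without heat moved less. Of 27 constitutive chaperones and members of the Hsp90 machinery, 6 were lower late and 0 higher (22.2% called), with a median of -0.20. Hsp83, the fly Hsp90, had 1303, 1318, 1187 and 1204 CPM late and 3135, 2445, 2580 and 1772 CPM early (-0.99 ± 0.14, adjusted p = 0.00227), and 1092 CPM in the control. Hsp90 was thus back close to the unheated level at 8 h. Stip1, the Hop protein that links Hsp70 to Hsp90, fell by 0.36 (adjusted p = 0.00397), and the mitochondrial chaperonin Hsp60A by 0.37 (adjusted p = 0.00648). The direction was down in 26 of the 27. Without the 1 h climber library 11 were lower.

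Genes of the vitelline membrane and eggshell, which follicle cells switch on late in egg maturation, held the largest falls. Of 17 measured, 11 were lower late and 0 higher, with a median of -2.59, and their summed level was 381 to 1020 CPM late, 2408 to 6379 CPM early, 2505 to 5177 CPM at 2 h, 1312 to 2209 CPM at 4 h and 3618 CPM in the control. The control lay inside the early range, so here it was the late libraries that stood away from unheated flies. Vm32E, a vitelline membrane protein (chr2L:11171167-11171665, minus strand, dm6), had 20.004, 13.9, 14.0 and 5.91 CPM in the late libraries and 509, 261, 146 and 163 CPM in the early ones, with 209 CPM in the control. It fell by 4.33 on the log2 scale (SE 0.61, adjusted p = 0.00963), a 20.1-fold fall.

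Other eggshell genes behaved alike. Vm34Ca had 274, 190, 220 and 189 CPM late against 2717, 1487, 1001 and 1124 CPM early (-2.86 ± 0.38, adjusted p = 0.00757). Nudel (ndl), a protease that follicle cells make for the eggshell and for the axis of the embryo, had 1.29, 2.25, 3.17 and 0.795 CPM late against 16.0, 12.99, 12.6 and 10.6 CPM early (-2.81 ± 0.33, adjusted p = 0.000148). Palisade (psd), Vm26Aa, Vm26Ab and Vm26Ac lie within a short stretch of chromosome 2L and fell by 4.20, 2.73, 3.58 and 3.16 on the log2 scale. In each of these 7 genes no late library reached an early one. The calls on psd, Vm26Aa and Vm26Ab were lost in some of the fits that left out 1 library, with adjusted p up to 0.0719, 0.0660 and 0.0916. CG14309, also in the list, fell by 2.698 (adjusted p = 0.0112).

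Fcp3C, a follicle cell protein, was the 1 gene of 10617 tested that differed between 8 h and 6 h (0.00942%). It had 2.01 and 1.79 CPM at 8 h against 6.41 and 8.65 CPM at 6 h, and 21.9 to 26.3 CPM early (8 h minus 6 h -1.99 ± 0.26, adjusted p = 0.0119). The call was lost without the 0 h non-climber, the 0 h climber or the 6 h non-climber library, each of which left 0 genes called, while 4 genes passed without the 8 h climber library and 3 without the 8 h non-climber library. In all 444 genes had an unadjusted p under 0.05.

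Other egg genes gave few calls. Of 10 chorion genes, expressed in the follicle cells after it, 0 passed in either direction and their median was +0.40. The 3 yolk protein genes and the yolk receptor gene also gave 0 calls, with a median of -1.02 and a summed level of 5010 to 5998 CPM late and 6695 to 18200 CPM early, without overlap, and all 4 differences were below 0. Without the 1 h climber library 2 of these 4 were lower. Of 21 germline genes 2 were lower and 0 higher (9.52% called, near the 8.78% over all genes). They were vas, an RNA helicase of germ cells, with 130 ± 18 CPM late and 206 ± 14 CPM early (SD, n = 4 each; -0.67 ± 0.09 SE, adjusted p = 0.000279 by edgeR), and the maternal tubulin alphaTub67C (-0.41 ± 0.09, adjusted p = 0.00859).

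Among the other large falls were Lsp1beta, a storage protein of the blood, and CG13227. Lsp1beta had 2.35, 2.20, 2.26 and 1.29 CPM late and 17.3, 8.08, 7.03 and 35.8 CPM early, the highest value being that of the 1 h climber library (-3.06 ± 0.61, adjusted p = 0.0257). That call held in 3 of the 8 fits that left out 1 library, with an adjusted p of 8.61e-05 without the 1 h climber library. CG13227 had 4.30, 1.89, 1.77 and 3.92 CPM late and 24.5, 23.6, 10.9 and 20.4 CPM early (-2.73 ± 0.35, adjusted p = 0.00113), with 0.790 CPM in the control. CG13227 was therefore, unlike the eggshell genes, nearer to the control late than early.

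The largest rises led with GstD2, a glutathione transferase of the delta class (chr3R:12371971-12372704, plus strand, dm6). It had 45.9, 45.02, 43.4 and 55.6 CPM late and 5.96, 8.38, 12.1 and 10.95 CPM early, a rise of 2.35 ± 0.19 (adjusted p = 1.06e-05), and 12.6 CPM in the control. The late libraries were 3.77-fold above the control on average and the early ones below it at 0.743 of its level. At 2 h and 4 h GstD2 had 23.04 and 22.6 CPM in climbers and 39.2 and 54.6 CPM in non-climbers. The call held in all 8 fits that left out 1 library.

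Frost (Fst), best known for its rise during recovery from cold, had 150, 204, 175 and 206 CPM late and 41.3, 28.2, 22.6 and 53.9 CPM early (2.34 ± 0.30, adjusted p = 0.00585). The gene mat had 224, 235, 208 and 277 CPM late and 52.9, 61.4, 26.4 and 73.3 CPM early (2.15 ± 0.32, adjusted p = 0.0108). For both, the 2 h libraries still lay at early levels and the 4 h libraries lay between, and the control lay with the early libraries at 33.3 and 44.6 CPM. The late mean of Fst was 5.52-fold and that of mat 5.29-fold above the control. Pherokine 3 (Phk-3), a small secreted protein, was steady late at 76.6, 76.9, 74.1 and 75.3 CPM against 19.9, 17.6, 16.1 and 30.8 CPM early (1.86 ± 0.17, adjusted p = 0.000113).

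The rest of the 10 largest rises were CG6271 (2.23 ± 0.25), CG7763 (1.93 ± 0.39), the maltase Mal-A8 (1.78 ± 0.21) and 3 transfer RNA genes of the mitochondrial genome. CG6271 had 15.4, 19.3, 20.3 and 20.3 CPM late and 3.39, 4.12, 2.36 and 6.45 CPM early. The genes with the smallest p of all were not among the largest rises and are named after their values were seen. They were Dip-B, a dipeptidyl aminopeptidase, with 628 ± 27 CPM late and 283 ± 23 CPM early (SD, n = 4 each; 1.15 ± 0.08 SE, adjusted p = 3.7e-07 by edgeR), and CG3604 (1.55 ± 0.11, adjusted p = 5.63e-07 by edgeR).

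**Figure D2:**
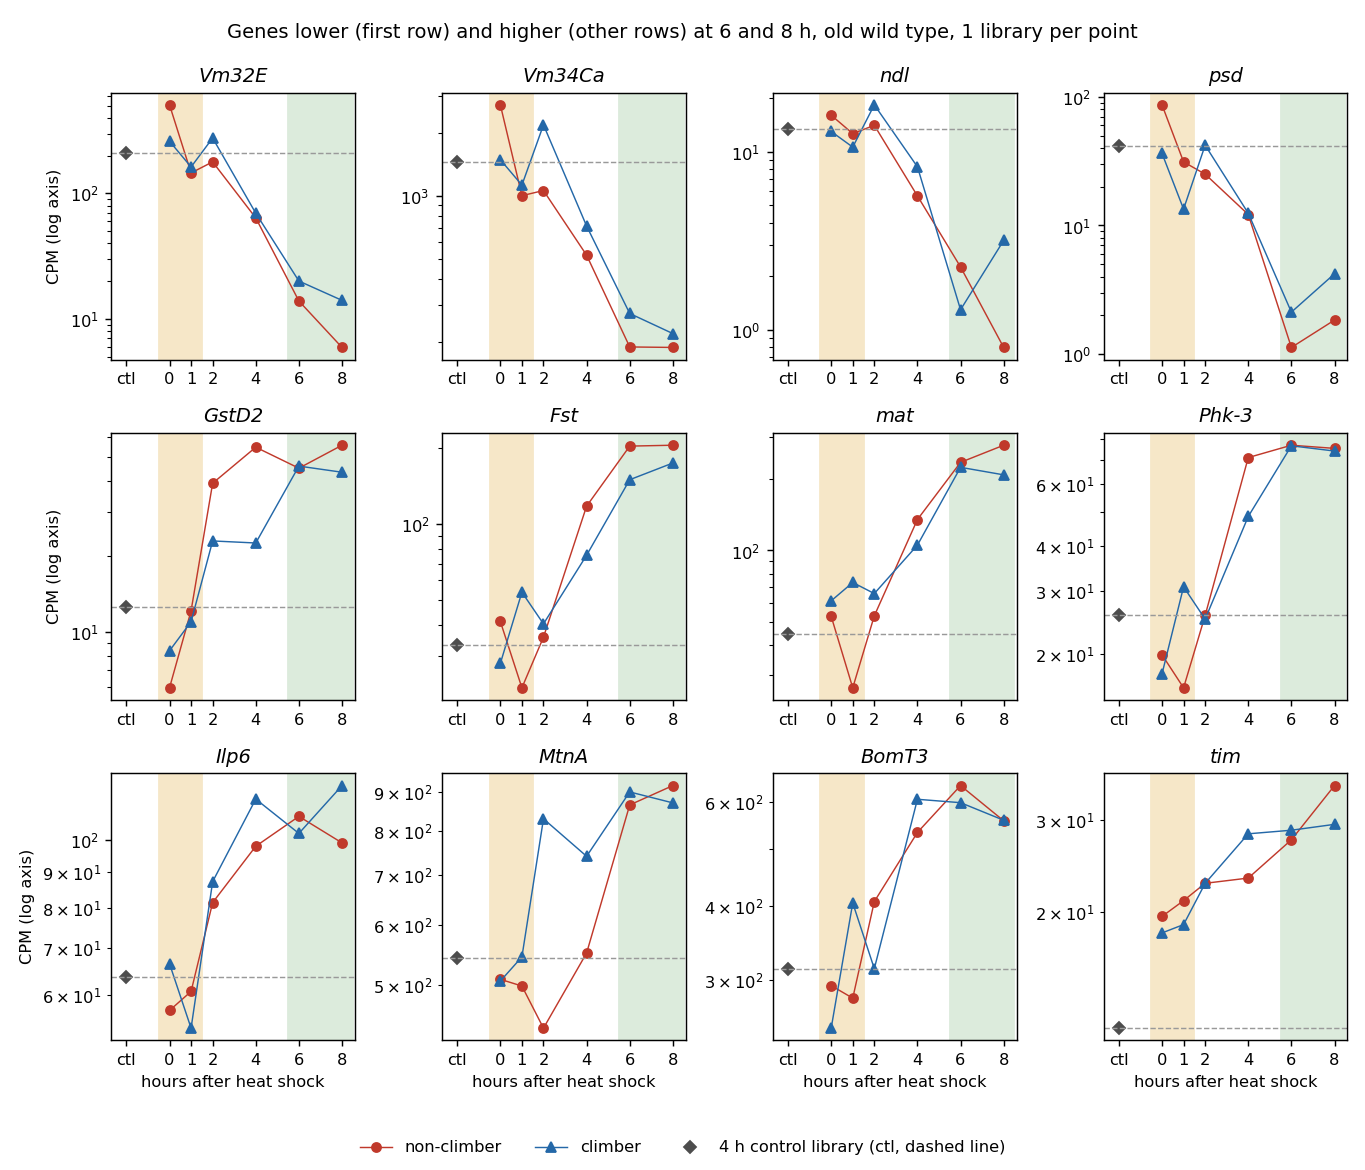
CPM on a log axis against hours after heat shock for 4 eggshell genes (first row) and 8 genes that were higher at 6 and 8 h (other rows), 1 library per point, with symbols and shading for non-climbers, climbers, 0 and 1 h, 6 and 8 h, and the 4 h control library (ctl). The 4 eggshell genes lie below the control level in all libraries at 4, 6 and 8 h, with some values at 1 and 2 h already below it. GstD2, Fst, mat and Phk-3 lie above the control level in all 4 libraries at 6 and 8 h.

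Of 36 mitochondrial transcripts 13 were higher late and 0 lower, with a median of +0.84. Their summed level overlapped, with 63500 to 128500 CPM late and 67140 to 82800 CPM early. The calls were mostly transfer RNAs: 11 of 21 transfer RNA genes passed, with a median of +1.26, against 2 of the 13 protein-coding genes, with a median of +0.32, and 0 of the 2 ribosomal RNA genes. Mitochondrial messages are cut from long transcripts in which transfer RNAs lie between them, and the strand used in counting is not given in the sources used here, so a count on a transfer RNA cannot be told from one on an uncut or opposite transcript. mt:tRNA:Val-TAC had 33.7, 32.0, 33.9 and 38.3 CPM late and 11.9, 8.73, 13.8 and 8.32 CPM early (1.68 ± 0.16, adjusted p = 9.22e-06), with 2.53 CPM in the control. mt:tRNA:Ile-GAT rose by 1.99 ± 0.22 (adjusted p = 4.08e-05) and mt:tRNA:Arg-TCG by 1.504 ± 0.15 (adjusted p = 0.000199). Both were lower in the control than in any late library, at 2.79 and 55.2 CPM. The call on mt:tRNA:Met-CAT, 2.23 ± 0.48, held in 2 of the 8 fits that left out 1 library.

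Of 44 nuclear genes of oxidative phosphorylation, which code for most subunits of the chain, 25 were lower late and 0 higher. The differences were small, with a median of -0.31, and 42 of the 44 pointed down. The summed level was 8927 to 9185 CPM late and 10160 to 12190 CPM early, without overlap, and 9606 CPM in the control, between the sides. Of the ATP synthase genes 9 of 11 fell, of complex IV 5 of 6, of complex III and cytochrome c 4 of 5, of complex I 7 of 18 and of complex II 0 of 4. ATPsyndelta, a subunit of the ATP synthase stalk, had 175, 175, 177 and 168 CPM late against 294, 229, 219 and 255 CPM early (-0.52 ± 0.09, adjusted p = 0.00133). Cyt-c1 (-0.37 ± 0.07) and UQCR-C1 (-0.39 ± 0.08) of complex III passed too. Without the 1 h climber library 22 were lower. Of 85 ribosomal protein genes 81 had differences below 0. By test 5 were lower with all libraries (5.88%, against 3.86% lower over all genes) and 14 without the 1 h climber library. Their summed level overlapped, with 168400 to 177000 CPM late and 170800 to 218500 CPM early. With batch as a covariate 3 of the 44 oxidative phosphorylation genes were lower, with a median of -0.38, and 0 of the 85 ribosomal protein genes passed in edgeR's test, with a median that turned to +0.04. RpL13A averaged 1896 ± 96.6 CPM late and 2549 ± 274 CPM early (SD, n = 4 each; -0.43 ± 0.08 SE, adjusted p = 0.00405 by edgeR). Of 21 translation factors 1 was lower (4.76%, near the share over all genes), eEF1gamma (-0.34 ± 0.08, adjusted p = 0.0123).

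Detoxification genes split. Of 31 glutathione transferases 3 were higher, GstD2 with GstT4 among them, and 7 lower (32.3% called, against 8.78% over all genes). GstT4 had 48.1, 48.7, 50.1 and 44.1 CPM late against 33.3, 22.1, 25.9 and 29.8 CPM early (0.78 ± 0.12, adjusted p = 0.000626). GstE3 had 51.4, 53.5, 43.6 and 46.7 CPM late against 99.0, 88.3, 76.0 and 69.8 CPM early (-0.77 ± 0.11, adjusted p = 0.000301). The epsilon-class gene and the theta-class gene thus ended on opposite sides, and the control had 24.7 CPM of GstE3, below both sides. Of 59 cytochrome P450 genes 9 were higher and 2 lower (18.6% called). Cyp12d1-p, a mitochondrial enzyme inducible by foreign compounds, fell by 1.97 ± 0.30 (adjusted p = 0.00242), and Cyp6w1 (0.83 ± 0.14) and Cyp6a14 (0.87 ± 0.17) rose. Of 19 antioxidant genes 6 were higher and 3 lower (47.4% called). Catalase (Cat), which breaks down hydrogen peroxide, averaged 365 ± 35 CPM late and 272 ± 36 CPM early (SD, n = 4 each; 0.43 ± 0.10 SE, adjusted p = 0.0102 by edgeR), and the glutathione peroxidase Gtpx rose by 0.49 ± 0.08 (adjusted p = 0.000721). Fer3HCH, a mitochondrial ferritin, fell by 2.46 ± 0.52, at a level of 0.122 to 0.883 CPM late and 1.61 to 4.31 CPM early, near the counting floor.

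Of 6 genes of metallothioneins and their regulator 1 was higher (16.7%, against 8.78% called over all genes). MtnA, which binds copper and zinc, had 900, 865, 871 and 918 CPM late and 509, 506, 499 and 545 CPM early (0.79 ± 0.07, adjusted p = 7.79e-06), with 543 CPM in the control. The libraries of each side, which differ in hour and behaviour, lay close together for MtnA, and the control lay with the early libraries. At 2 h it differed between the single libraries of the behaviours, with 830 CPM in climbers and 439 CPM in non-climbers.

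Immune genes rose in part, and how many were called moved with the 1 h climber library and with batch as a covariate. Of 14 bomanins and daishos, secreted peptides under the Toll pathway, 6 were higher and 0 lower, with a median of +0.74, and without that library 13 were higher. With batch as a covariate 1 was higher and 0 lower, with a median of +0.31. Their summed level was 10710 to 12370 CPM late and 4721 to 10080 CPM early, the top early value being the 1 h climber library, and 8851 CPM in the control. BomT3 had 598, 639, 559 and 557 CPM late against 294, 249, 280 and 405 CPM early (0.94 ± 0.13, adjusted p = 0.0013), and BomS4 rose by 0.53 ± 0.09 (adjusted p = 0.00148). Both held in all 8 fits that left out 1 library.

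Antimicrobial peptides gave fewer calls. Of 18 genes 1 was higher and 2 lower (16.7% called, against 8.78% over all genes), with a median of +0.73. Without the 1 h climber library 6 were higher and 2 lower. With batch as a covariate the median turned to -0.45, with 0 higher and 1 lower. The summed level was 4923 to 10310 CPM late and 2363 to 11800 CPM early, the 1 h climber library again at the top, so the sides overlapped, and the control had 11800 CPM. The drosomycin-like genes Drsl4 (-0.71 ± 0.11, adjusted p = 0.000626) and Drsl5 (-0.81 ± 0.14, adjusted p = 0.00179) fell, and Drsl3 (1.62 ± 0.40, adjusted p = 0.0169) rose at a low level, a call that held in 5 of the 8 fits that left out 1 library. Of 9 peptidoglycan recognition genes and regulators, which sense bacterial cell walls, 4 were higher and 0 lower, and without the 1 h climber library 6 were higher. With batch as a covariate 0 of the 9 passed in edgeR's test, and the median was +0.10. PGRP-SA, which feeds into Toll, had 49.5, 57.6, 38.5 and 38.7 CPM late against 22.4, 22.8, 24.5 and 33.3 CPM early (0.85 ± 0.16, adjusted p = 0.00392). PGRP-LA and PGRP-SD each rose by 0.81, and the call on PGRP-SD held in 2 of the 8 fits that left out 1 library. The 4 Turandot genes tested, secreted stress peptides, gave 0 calls in edgeR's test with a median of +1.30, and their summed level overlapped, with 285 to 1442 CPM late and 131 to 416 CPM early.

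**Figure D3:**
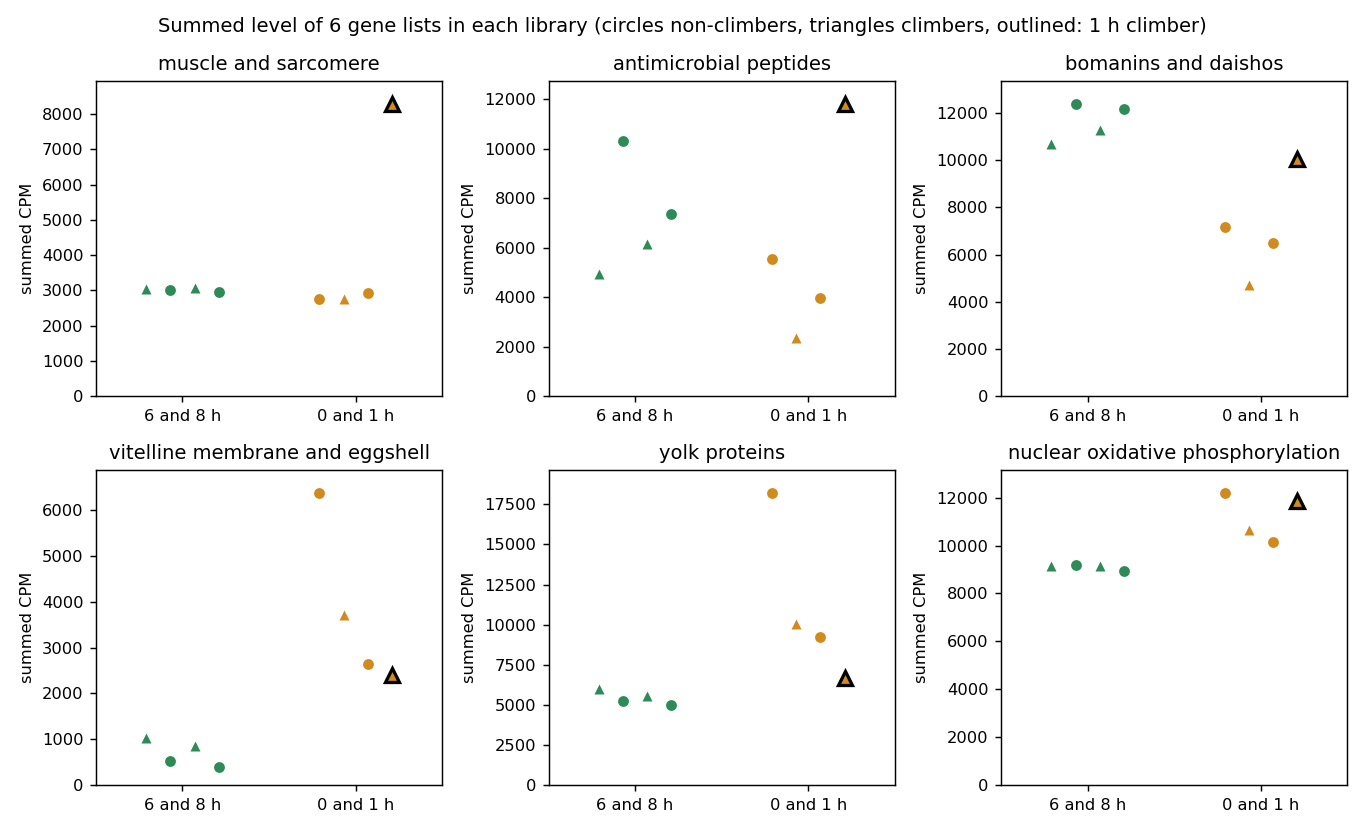
Summed CPM of 6 gene lists in each of the 4 libraries at 6 and 8 h (left in each panel) and the 4 libraries at 0 and 1 h (right), circles for non-climbers and triangles for climbers, with the 1 h climber library outlined. That library is far above the others for muscle genes and at the top of the early side for both immune lists, the eggshell and oxidative phosphorylation sums do not overlap between the sides, and all axes start at 0.

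Of 10 genes of insulin-like peptides, their binding proteins and adipokinetic hormone, 1 was higher (10%, against 8.78% called over all genes). Ilp6, the insulin-like peptide of the fat body, had 102, 108, 120 and 99.2 CPM late and 56.97, 66.5, 60.7 and 53.7 CPM early (0.85 ± 0.09, adjusted p = 2.57e-05), with 63.7 CPM in the control. The climber and non-climber libraries did not separate on either side for Ilp6, and by 2 h it had 87.2 and 81.4 CPM. ImpL2, a secreted protein that binds insulin-like peptides, differed inside the early side. It had 69.6 and 96.0 CPM at 1 h against 41.6 and 43.4 CPM at 0 h (0.96 ± 0.14, adjusted p = 0.0326). With Xrp1, a stress-responsive bZIP transcription factor with 343 and 357 CPM at 1 h against 182 and 206 CPM at 0 h (0.86 ± 0.13, adjusted p = 0.0326), it was 1 of the 2 genes of 10617 that differed between 1 h and 0 h (0.0188%). An unadjusted p under 0.05 was found for 597 genes. The count was 212 without the 1 h non-climber library, 4 without the 0 h climber library, and 0 without the 0 h non-climber library or any 1 of the 4 late libraries. Between late and early neither ImpL2 nor Xrp1 passed.

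Of 20 genes of the insulin receptor pathway 2 were higher (10%). Of 17 fasting and FOXO target genes 4 were higher and 1 lower (29.4% called), with a median of +0.26. Thor, the 4E-BP that holds back translation when insulin signalling is low, had 305, 333, 347 and 371 CPM late against 158, 202, 250 and 232 CPM early (0.69 ± 0.12, adjusted p = 0.00498), and 162 CPM in the control. Thor was thus about as high at 2 h, with 322 and 299 CPM, as at 6 h. The receptor InR rose by 0.30 ± 0.09 (adjusted p = 0.0417) and the sugar-responsive factor sug by 0.53 ± 0.15 (adjusted p = 0.0329), and each call held in 3 of the 8 fits that left out 1 library. The deacetylase Sirt2 had 28.2, 29.4, 24.2 and 22.9 CPM late against 44.5, 42.7, 40.3 and 49.4 CPM early (-0.76 ± 0.11, adjusted p = 0.000454). In lipid synthesis 2 of 21 genes were higher, Desat1 (0.33 ± 0.09) and FASN2 (0.44 ± 0.13), and 1 was lower, Desat2 (-0.85 ± 0.18). Among 21 genes of sugar storage and digestion 4 were higher, with Mal-A8 and Mal-B2 (0.72 ± 0.11) among them, and 3 were lower, with the trehalose transporter Tret1-1 (-0.61 ± 0.14) among them. Of 13 glycolytic genes 2, Pgi (-0.39 ± 0.09) and Pglym78 (-0.31 ± 0.09), were lower. The shares called were 14.3% in lipid synthesis, 33.3% in sugar storage and digestion and 15.4% in glycolysis, against 8.78% over all genes. With 1 library left out, the calls on Desat1, FASN2 and Pglym78 held in 3, 2 and 1 of the 8 fits.

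In protein quality control the shares called were 12.5% for folding in the endoplasmic reticulum, 8.33% for autophagy and 3.23% for the proteasome. Over all genes the share was 8.78%, and for the constitutive chaperones and Hsp90 machinery above it was 22.2%. Of 24 genes of folding in the endoplasmic reticulum 3 were higher: CaBP1, a disulfide isomerase, with 148, 176, 165 and 177 CPM late against 121, 114.6, 96.1 and 91.0 CPM early (0.66 ± 0.10, adjusted p = 0.000428), the BiP exchange factor Sil1 (0.74 ± 0.12) and the oxidase Ero1L (0.41 ± 0.09). Of 24 autophagy genes Atg8a, the ubiquitin-like protein of the autophagosome membrane (0.53 ± 0.08, adjusted p = 0.000626), and Atg9 (0.55 ± 0.15) were higher. Of 31 proteasome subunits 1, Rpn9, was higher (0.25 ± 0.07, adjusted p = 0.0487), and that call held in 1 of the 8 fits that left out 1 library. Of 15 stress transcription factors REPTOR-BP (0.54 ± 0.10) and crc, the fly ATF4 (0.42 ± 0.13), were higher (13.3% called). The calls on Atg9 and crc held in 3 and 1 of those 8 fits.

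In the list of cytokine and JNK signalling genes 3 of 14 were higher and 0 lower (21.4% called, against 8.78% over all genes). Without the 1 h climber library 5 were higher. The 3 included genes that act for and against cell death. The pro-death gene hid had 71.3, 88.4, 89.6 and 108 CPM late against 43.0, 43.2, 47.1 and 59.5 CPM early (0.89 ± 0.13, adjusted p = 0.000743), and Diap1, an inhibitor of caspases, rose by 0.39 ± 0.08 (adjusted p = 0.00584). Gadd45 rose by 0.85 ± 0.13 (adjusted p = 0.000637). Of 8 immediate early genes, which neurons switch on with activity, 2 were higher (25% called). They were the capsid-like Arc1, with 794, 985, 724 and 910 CPM late against 504, 502, 542 and 514 CPM early (0.73 ± 0.09, adjusted p = 8.84e-05), and Arc2 (0.89 ± 0.16).

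Of 27 genes in the list of trypsins, Jonah proteases and other serine proteases 25 had differences below 0, 5 were lower by test and 1 was higher. This was 22.2% called, against 8.78% over all genes. The median of the proteases was -0.68, and with batch as a covariate it was +0.20 with 0 calls in edgeR's test. The ones named by rule were yip7 (-0.59 ± 0.11), lambdaTry (-0.88 ± 0.20) and, upwards, Ser7 (1.05 ± 0.22), whose call held in 5 of the 8 fits that left out 1 library. Of 7 lysozymes LysX was higher (0.40 ± 0.09) and LysS lower (-2.27 ± 0.54), a share of 28.6% called. LysS had 0.118 to 0.488 CPM late and 1.19 to 1.99 CPM early. Without the 1 h climber library 5 lysozymes were lower. The lysozyme median turned as well, -1.86 with all libraries and +0.36 with batch as a covariate. Of 12 haemocyte genes, markers of blood cells, 2 were higher and 2 lower (33.3% called). The collagen Col4a1 had 33.5, 37.0, 34.3 and 28.7 CPM late against 93.9, 63.0, 56.3 and 72.6 CPM early (-1.10 ± 0.14, adjusted p = 0.000427), and the scavenger receptor crq (0.43 ± 0.08) and the GATA factor srp (0.89 ± 0.18) rose.

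The labels do not give the time of day at sampling. Of 13 clock genes 1 was higher and 1 lower. Timeless (tim), which with period represses the clock, had 28.7, 27.5, 29.4 and 34.9 CPM late against 19.6, 18.3, 21.0 and 18.9 CPM early (0.63 ± 0.12, adjusted p = 0.00324), and 12.01 CPM in the control. Clk, an activator in the clock, had 5.65, 5.63, 4.58 and 4.62 CPM late against 9.20, 9.97, 6.56 and 7.98 CPM early (-0.72 ± 0.21, adjusted p = 0.0439). The call on Clk held in 2 of the 8 fits that left out 1 library. The sides did not overlap for either gene. The other 11, among them vri (+0.63, adjusted p = 0.0978), per, cry, Pdp1 and dco, did not pass, and the share of 2 in 13 stands beside 8.78% called among all genes. The part of the time of day in the other results was not tested. Of 19 photoreceptor genes 1, Rh6, was lower (-0.63 ± 0.18, adjusted p = 0.0395), a call that held in 2 of the 8 fits. That share, 5.26%, was under the 8.78% called over all genes. Of 25 muscle genes 0 passed in edgeR's test, and their median moved with 1 library: it was -0.56 with all libraries and +0.13 without the 1 h climber library, whose summed muscle level was 8276 CPM against 2757 to 3075 CPM in the other 7.

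**Figure D4:**
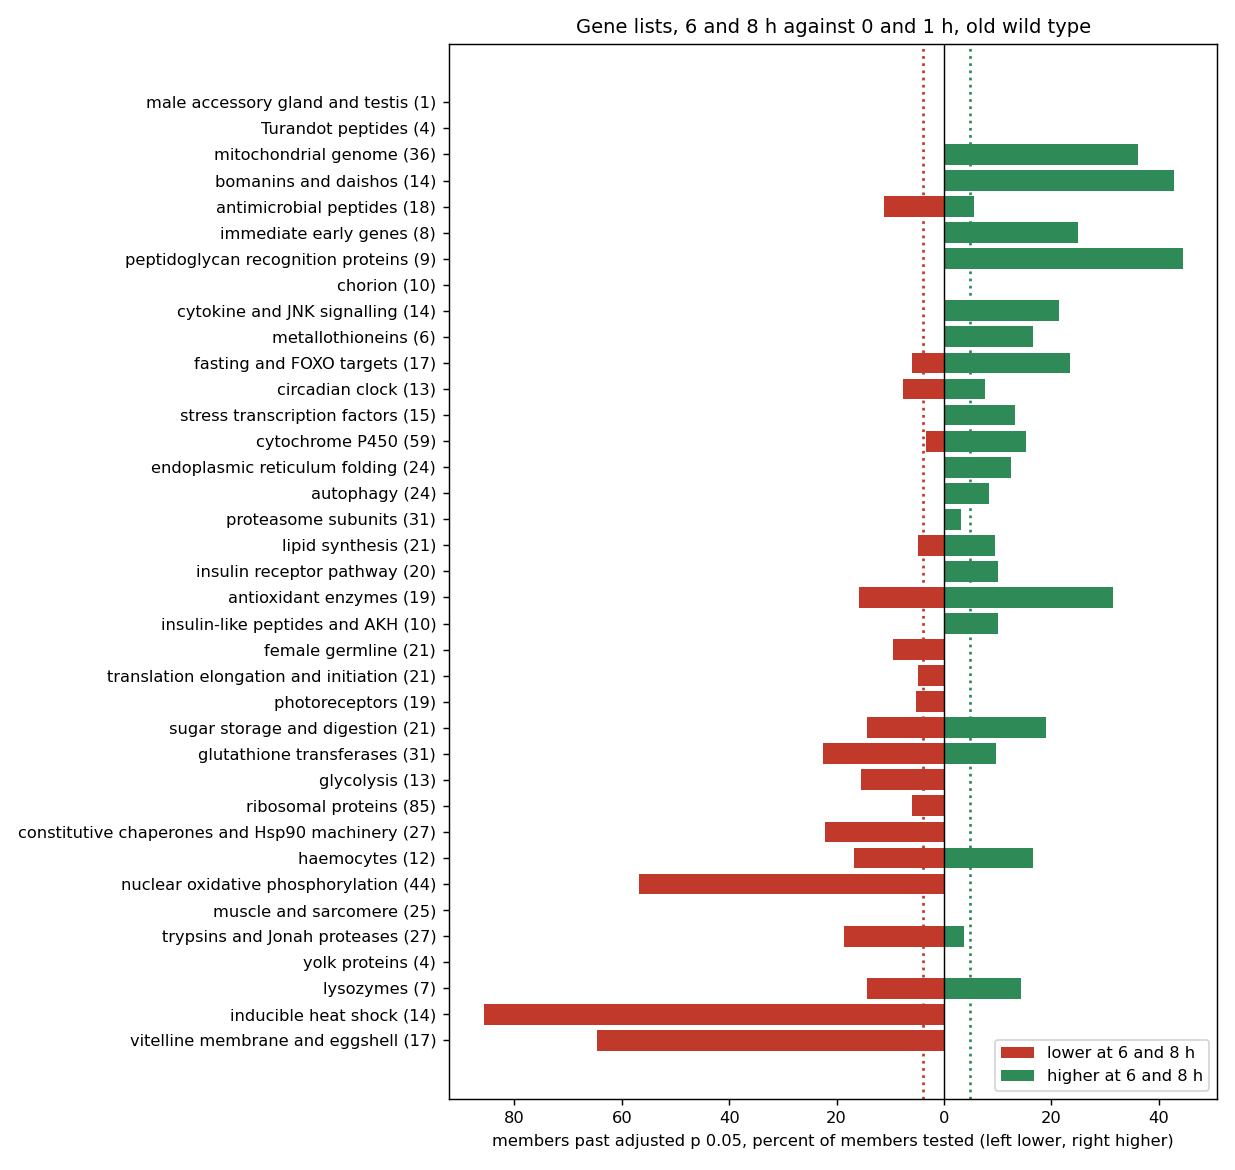
Share of the tested members of each gene list (number tested in brackets) past an adjusted p of 0.05 in the lower direction (bars to the left) and the higher direction (bars to the right) at 6 and 8 h against 0 and 1 h, lists ordered by median difference, with dotted lines at the shares over all genes, 3.86% and 4.92%. The inducible heat shock, eggshell and nuclear oxidative phosphorylation lists have the longest bars to the left, and peptidoglycan recognition proteins, bomanins and the mitochondrial genome the longest to the right.

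Since batch followed the hour, the comparison was repeated in ways that use the overlap in batch 3. With batch as a covariate in the 8 libraries the difference rests on the 1 h climber library against both 6 h libraries, and 51 genes were higher (0.508%) and 102 lower (1.02%), of which 49 and 27 were among the genes called without it. The fitted sign was the same for 493 of the 494 and 386 of the 387 genes, though these fits share libraries and are not independent. In that fit 2 of the 14 inducible heat shock genes passed, Hsp23 (-2.13, adjusted p = 4.02e-05) and Hsp26 (-1.14, adjusted p = 0.0124), and their median was -0.92. Of the 17 eggshell genes 2 passed (median -1.67), and GstD2 (2.05, adjusted p = 0.016), Phk-3 (1.32), Ilp6 (0.97) and MtnA (0.70) stayed past the threshold. Of the muscle genes 17 of 25 were lower in that fit, with the single early library of the batch being the one that stands apart. A slope per hour over the 7 heat-shocked libraries of batch 3, from 1 to 6 h, gave 64 genes that rose and 42 that fell. Without the 1 h climber library, a fit added after the data were seen, the slope over 2, 4 and 6 h gave 76 and 50. Of the 878 genes called late against early that could be fitted, 826 had the same sign in it and 105 also passed. Both comparisons use the same 6 h libraries, so agreement in sign is partly built in. The share of same signs over all genes was not computed. Beyond batch 3, batch and hour cannot be told apart.

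Climbers and non-climbers were compared only in how far their late minus early differences differed. Of 10617 genes 6 passed (0.0565%), all with a lower late minus early difference in non-climbers, and 434 had an unadjusted p under 0.05. CG34220 had 283 and 235 CPM in the late non-climber libraries against 808 and 621 CPM in the early non-climber libraries, and 395 and 385 CPM in the late climber libraries against 356 and 279 CPM in the early climber libraries. Its values were lower late than early in non-climbers and higher in climbers, and the difference between the 2 changes was -1.76 ± 0.21 (adjusted p = 0.00496). CG13083, from the eggshell list, had 22.8 and 19.1 CPM late against 43.5 and 31.6 CPM early in non-climbers, and 90.5 and 72.0 CPM late against 11.4 and 17.3 CPM early in climbers (-3.36 ± 0.31, adjusted p = 0.00179). Mur11Da (-4.08 ± 0.54), CG8560 (-2.98 ± 0.48), lncRNA:CR43264 (-1.55 ± 0.25) and CG4066 (-7.06 ± 1.17) were the others. CG4066 had 0.0496 CPM in the 8 h non-climber library and 0.0847 CPM in the 1 h climber library, under the level that 3 counts give, so its fitted value depends on the prior count and is not a measure of size. The count rested on single libraries, with 172 genes without the 0 h climber library, and 2 (without the 6 h climber library) to 18 (without the 1 h climber library) without 1 of the other 7.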

How the data were processed

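The deposited table held whole-number read counts per gene, made by the authors from read 1 of 3′ end libraries (Lexogen Quant 3′ kit, per the labels' protocols). STAR 2.7.5a and the dm6 genome are named in the submitters' processing notes. The counting tool, its annotation and its use of strand are not given in the sources used here. Of 17609 genes in the table, 17596 matched a symbol in the annotation, which has dm6 coordinates. In the 8 libraries 3143 genes had no count, and edgeR's filter left 10031. From the counts, edgeR 4.0.16 (R 4.3.3) fitted late against early without covariates (TMM scaling, robust quasi-likelihood, 6 residual degrees of freedom, adjusted p under 0.05). The hour within each side and the behaviour were fitted over the same 8 libraries with 4 residual degrees of freedom on 10617 genes. Standard errors are the log2 difference divided by the square root of F. Correlations between libraries ran from 0.9554 to 0.9826, with 0 identical columns. A level of 0 counts allows up to 3 counts, 0.145 to 0.255 CPM, for counting error only. The pseudocount for positions was 0.5 CPM and the prior count of log2 CPM was 2. The script was tested on simulated data.

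Named genes were the 10 largest rises and falls that passed with a mean log2 CPM of at least 3 and no overlap, up to 3 members of each of 37 gene lists, all tested heat shock and clock genes, and the 3 smallest p of each other comparison. The libraries, lists and rules were chosen with earlier results of these data known. Alternatives used RLE scaling, scaling without heat shock genes, other filters, DESeq2 1.42.0, limma-voom (limma 3.58.1), batch or behaviour as covariates, single hours, and each library left out.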

Additional observations from a re-analysis of the deposited data

Results flagged for a closer look

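The late minus early difference of 6 genes differed between non-climbers and climbers by edgeR's test of the interaction, with values of -3.36 for CG13083, -1.76 for CG34220, -4.08 for Mur11Da, -2.98 for CG8560, -1.55 for lncRNA:CR43264 and -7.06 for CG4066 on the log2 scale. The value of CG4066 is no measure of size, since 2 of its libraries lay under the level that 3 counts give. All 6 are lower in non-climbers than in climbers on this scale.

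A single library lay far from the other 3 of its side for 8 of the 224 sets of 4 values examined over the named genes. If the 4 values of a set were like draws, chance would give about 11.2. Libraries of a side differed in hour and behaviour, and many genes were picked by their values, so 11.2 is a rough guide only. In the late libraries, Arc2 had 21.2 CPM in the 8 h climber library against 30.1 to 31.9 CPM in the others. CG7763 had 5.80 CPM there against 14.7 to 15.4 CPM. In the 8 h non-climber library RpL13A had 1752 CPM against 1928 to 1955 CPM, and Lsp1beta 1.29 CPM against 2.20 to 2.35 CPM. In the early libraries BomT2 had 489.5 CPM in the 1 h climber library against 301 to 319 CPM. In the 0 h non-climber library eEF1gamma had 1786 CPM against 1463 to 1497 CPM, and dco 449 CPM against 564 to 580 CPM. In the 1 h non-climber library per had 3.30 CPM against 1.78 to 1.93 CPM. The deviating libraries were 5 of the 8, with at most 2 results each.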

How the results depend on the processing

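Scaling, filters and tools left the late against early counts within 1.5 times of 494 higher and 387 lower: 492 and 403 with RLE factors, 494 and 390 with TMM without heat shock genes, 499 and 414 without a filter, 509 and 406 with a stricter one, 648 and 547 by DESeq2, 572 and 378 by limma-voom, and 462 and 359 with behaviour as a covariate. Using batch did not: 51 and 102 with batch as a covariate in 8 libraries, 30 and 96 in 12 libraries, 64 and 42 for the slope within batch 3, and 76 and 50 for that slope without the 1 h library. With 6 h against 1 h only, 52 and 20 genes passed, and with 8 h against 0 h only 367 and 236. Leaving out 1 library gave 319 to 830 higher and 200 to 547 lower. The count between 8 h and 6 h was 7 by DESeq2 and 0 to 4 with 1 library left out, that between 1 h and 0 h was 32 by DESeq2 and 0 to 212, and that by behaviour was 56 by DESeq2 and 2 to 172. Where leaving out 1 library left an hour with a single one, it was taken to vary like the others. Of the 99 named genes that passed, 70 passed in all 8 fits that left out 1 library. With batch as a covariate 78 of those 99 lost the call. The 34 of the 112 named genes that stayed on their side of the threshold include the named genes that had no call. The sign turned, without passing, for sug (-0.0342) and FASN2 (-0.0179) in the batch 3 slope (log2 per hour), and without the 1 h library for Diap1 (-0.0138), Desat1 (-0.012), sug (-0.0812), InR (-0.014) and FASN2 (-0.038). The cause of these changes was not tested, beyond the fewer libraries that the single-hour, batch 3 and left-out fits use. No paired analysis was possible because the labels give no replicate numbers. Depth limits statements on genes under about 0.255 CPM, the level that 3 counts give in the shallowest library.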

Other observations

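Among the genes with the smallest p between late and early libraries were several of no list, picked here after their values were seen. Idgf1, a secreted growth factor of the chitinase family, had 109, 126, 100.5 and 98.4 CPM in the 6 h climber, 6 h non-climber, 8 h climber and 8 h non-climber libraries, against 53.5, 44.2, 54.3 and 54.0 CPM in the 0 h non-climber, 0 h climber, 1 h non-climber and 1 h climber libraries. Its difference was 1.076 ± 0.10 (SE, adjusted p = 8.14e-06 by edgeR), and all 4 late libraries lay above all 4 early ones. Act42A, a cytoplasmic actin, had 364, 366, 317 and 306 CPM late against 191, 183, 197 and 196 CPM early (0.82 ± 0.08, adjusted p = 1.03e-05 by edgeR). The 1 h climber library, which was far above the others for the muscle actin Act79B, lay with the other early libraries for Act42A. CG9498 (1.20 ± 0.11) and CG30151 (1.56 ± 0.15) were also higher late, and with batch as a covariate each of these 4 genes stayed past the threshold.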
